A study of Mus musculus with 48 samples.

Results

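Nr4a1, Nr4a2 and Nr4a3 are the 3 genes of the mouse Nr4a family of orphan nuclear receptors, and their transcripts were followed here in the cerebellum. They were taken by symbol from 4 deposited gene tables that together hold 6143 genes. All 3 members stand in the table of rotarod training against rest, among 908 genes. Nr4a1 and Nr4a3, but not Nr4a2, stand in the table of Chd4 conditional knockout (cKO) against wild type (WT), among 5508 genes. None of the 3 stands in either table of Sync-TRAP RNA, which hold 38 and 51 genes. The tables leave out every gene whose adjusted p in the deposited test was 0.05 or more, and a member outside a table therefore has no value in it.

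The rotarod libraries came from 4 WT cerebella of animals after rotarod training (the rotarod is a turning rod on which a mouse has to keep its balance), and the rest libraries from 4 WT cerebella of untrained mice kept in the home cage. The cKO libraries came from 4 cerebella with Chd4, the ATPase of the NuRD chromatin remodeling complex, conditionally deleted, and the WT libraries from 4 wild type cerebella. These 16 samples were messenger RNA at postnatal days 27 to 28. The Sync-TRAP samples, ribosome-bound RNA and its input, came from 3 cKO and 3 WT cerebella each at postnatal day 12, taken 6 days after electroporation. The driver of the deletion, the time between training and tissue collection and any pooling of animals are not stated in the labels.

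Nr4a proteins are transcription factors that bind DNA as monomers, at the NBRE element, or as dimers, and Nr4a1 and Nr4a2 can also pair with a retinoid X receptor. Their ligand pocket is filled by bulky side chains, so their activity depends mostly on how much protein is made. The genes are immediate early genes: in neurons, calcium and cAMP signals reach CREB, MEF2 and SRF at their control regions and switch them on within minutes, without new protein synthesis. Nr4a2 is also known for its role in the making and upkeep of midbrain dopamine neurons.

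The promoter sequences are shown because the 3 genes all rose with training and because CREB is a known inducer of all of them. Each line gives the 250 bases before the transcription start, 5′ to 3′ on the strand of the gene, from RefSeq on build GRCm38.p6. Nr4a1 (ENSMUSG00000023034) lies on chromosome 15 at 101253902 to 101274795, Nr4a2 (ENSMUSG00000026826) on chromosome 2 at 57106830 to 57124003, and Nr4a3 (ENSMUSG00000028341) on chromosome 4 at 48045078 to 48086447. The table gives 1 start for each gene, which for Nr4a2 is the outer end of the gene and for Nr4a1 and Nr4a3 lies inside the span above, since other RefSeq transcripts begin farther out. Capitals mark the CRE half-site of CREB, TGACG, or its reverse complement CGTCA.
Nr4a1, chr15:101266596-101266845, plus strand: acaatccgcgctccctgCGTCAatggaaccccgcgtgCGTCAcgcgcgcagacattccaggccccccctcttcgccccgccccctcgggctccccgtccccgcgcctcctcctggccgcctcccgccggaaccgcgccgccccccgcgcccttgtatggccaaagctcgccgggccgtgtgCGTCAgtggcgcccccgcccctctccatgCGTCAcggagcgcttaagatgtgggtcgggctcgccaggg
Nr4a2, chr2:57124004-57124253, minus strand: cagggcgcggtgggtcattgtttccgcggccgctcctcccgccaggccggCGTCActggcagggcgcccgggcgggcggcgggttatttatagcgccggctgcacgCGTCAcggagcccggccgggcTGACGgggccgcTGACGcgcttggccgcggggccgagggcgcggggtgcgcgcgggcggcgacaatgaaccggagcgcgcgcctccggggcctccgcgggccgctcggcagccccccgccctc
Nr4a3, chr4:48045055-48045304, plus strand: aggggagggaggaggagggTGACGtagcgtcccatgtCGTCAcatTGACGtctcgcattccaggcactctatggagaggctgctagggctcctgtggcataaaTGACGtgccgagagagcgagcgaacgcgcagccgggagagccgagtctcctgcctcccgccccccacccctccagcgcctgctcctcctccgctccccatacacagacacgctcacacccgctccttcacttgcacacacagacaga
Each of the 3 windows holds 4 half-sites. In Nr4a1 they begin 233, 213, 69 and 40 bases before the start, in Nr4a2 200, 144, 123 and 111 bases, and in Nr4a3 231, 213, 205 and 147 bases. At least 1 half-site is present in 17.8% of all 32851 mouse promoter windows of this length, and at least 4 in 0.137%, or 45 windows. The count of 4 was set after the members' matches were seen. The windows are rich in G and C, at 74.4% in Nr4a1, 80.0% in Nr4a2 and 63.6% in Nr4a3, against a median of 52.4%. Among the 6582 windows with at least the GC content of Nr4a3, 28.0% held 1 half-site or more and 0.380% held 4 or more. None of the 3 windows holds the palindromic full CRE, TGACGTCA, which contains both half-sites and is in 1.55% of all windows. The NBRE, AAAGGTCA or its reverse complement TGACCTTT, overlaps no half-site motif and is also in none of them, and in 1.34% of all windows. These matches describe the letters in the windows, and no binding was measured.

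The first comparison asks which transcripts of the cerebellum differ after motor training. All 3 Nr4a genes rose with training, Nr4a3 by 8.69-fold, Nr4a2 by 6.94-fold and Nr4a1 by 5.32-fold. Limma was run on the 908 listed genes alone, and called 113 of them higher and 54 lower. Its calls were 0.621% of the 26893 features tested in the authors' test, with 0.420% as higher. The authors' deposited table calls 3.38% of these features, 2.06% as higher. Levels are in log2 CPM, which divides the reads of a gene by the total of its library, and each library is named by its number in the column headers. In whole tissue, more cells with a transcript and more transcript per cell cannot be told apart. The labels give separate samples but do not say that they are separate animals, so the p-values measure only the spread between these samples.

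Nr4a1, also called Nur77, stood at 6.63, 6.69, 6.86 and 7.18 log2 CPM in rotarod libraries 3, 4, 7 and 8, against 4.77, 4.83, 4.19 and 3.93 in rest libraries 1, 2, 5 and 6. The groups were far apart, with the lowest rotarod library well above the highest rest library, and rest libraries 5 and 6 lay below rest libraries 1 and 2. In reads, the rotarod libraries held 1655, 1624, 1795 and 2388, against 455, 408, 249 and 211 in rest. The mean was 115.8 ± 20.7 CPM with training and 22.2 ± 6.57 CPM at rest (SD, n = 4 each). The difference was 2.41 ± 0.22 log2 (SE, 95% interval 1.91 to 2.91, limma adjusted p = 0.00413).

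Nr4a2, also called Nurr1, stood at 5.87, 6.22, 6.49 and 6.87 log2 CPM in rotarod libraries 3, 4, 7 and 8, against 3.67, 3.44, 3.92 and 3.23 in rest libraries 1, 2, 5 and 6. Here too the groups did not overlap, and the rotarod libraries were spread more widely than the rest libraries. The reads were 978, 1166, 1386 and 1920 with training, against 211, 155, 206 and 129 at rest. The mean was 84.7 ± 24.8 CPM with training and 11.9 ± 2.49 CPM at rest (SD, n = 4 each). The difference was 2.80 ± 0.22 log2 (95% interval 2.28 to 3.31, limma adjusted p = 0.00298).

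Nr4a3, also called Nor1, stood at 6.48, 6.77, 6.98 and 7.24 log2 CPM in rotarod libraries 3, 4, 7 and 8, against 4.13, 3.67, 3.89 and 3.30 in rest libraries 1, 2, 5 and 6. It had the largest difference of the 3 members, and its groups did not overlap. The reads were 1489, 1719, 1950 and 2481 with training, against 290, 182, 202 and 136 at rest. The mean was 118.7 ± 26.1 CPM with training and 13.6 ± 3.22 CPM at rest (SD, n = 4 each). The difference was 3.12 ± 0.21 log2 (95% interval 2.65 to 3.59, limma adjusted p = 0.00117).

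**Figure D1:**
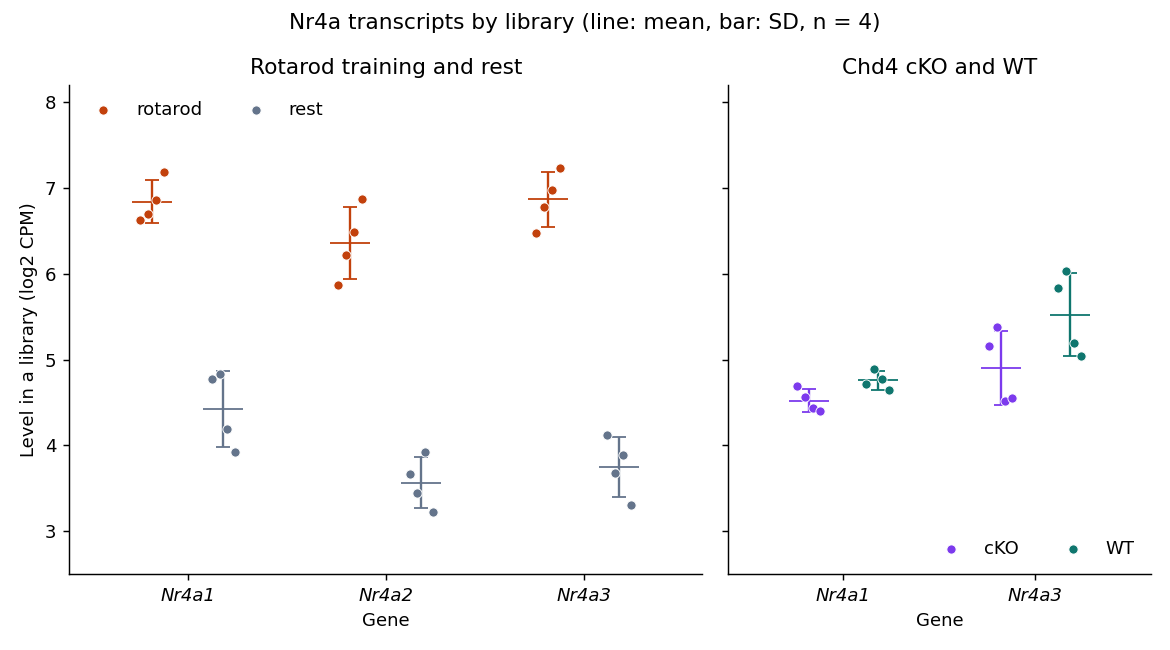
Level of each Nr4a transcript in log2 CPM in every library (points), with the mean (line) and SD (bar) of 4 libraries, for rotarod and rest on the left and for Chd4 cKO and WT on the right. Rotarod libraries lie above all rest libraries for the 3 genes, whereas cKO and WT libraries overlap for Nr4a1 and Nr4a3, and Nr4a2 has no value in the right panel.

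For each member the exact two-sided permutation test over the 8 libraries gave p = 0.0286, the smallest value that 4 against 4 allows. Groups without overlap are common among listed genes, at 84.9% of the 908. In the authors' deposited table the log2 fold changes were 3.10 for Nr4a3, 2.80 for Nr4a2 and 2.33 for Nr4a1. By p-value in the authors' deposited table, Nr4a3 ranked 2, Nr4a2 ranked 5 and Nr4a1 ranked 8 of 908 genes. By fold change in the authors' deposited table, they ranked 15, 20 and 25 among the genes that were higher. All 3 rotarod levels were highest in library 8 and lowest in library 3, apart from the reads of Nr4a1, which were lowest in library 4. The column numbers fall into 1 to 4 and 5 to 8, each with 2 rotarod and 2 rest libraries. This split was examined after the data were seen, and the headers do not say what the numbers mean. Nr4a1 differed by 1.86 within columns 1 to 4 and by 2.96 within columns 5 to 8. Its rest libraries averaged 4.80 log2 CPM in columns 1 and 2 and 4.06 in columns 5 and 6. Nr4a2 differed by 2.49 within columns 1 to 4 and by 3.10 within columns 5 to 8, and Nr4a3 by 2.73 within columns 1 to 4 and by 3.51 within columns 5 to 8. Thus each member differed more within columns 5 to 8, a contrast for which no test was made. With only 2 libraries a group, none of these values passed limma, which called 0 genes within columns 1 to 4 and 0 within columns 5 to 8 (adjusted p of 0.169 to 0.417 for the members).

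The changes of the members were set against each other as the log2 ratio of 2 members within a library, which cancels the scaling of the library. A ratio of reads also depends on transcript length, so only its change between groups is read here. Nr4a3 over Nr4a1 was -0.15, 0.08, 0.12 and 0.06 in rotarod libraries 3, 4, 7 and 8, against -0.65, -1.16, -0.30 and -0.63 in rest libraries 1, 2, 5 and 6. Every rotarod library had the higher ratio. The difference was 0.71 ± 0.19 (SE), with an exact two-sided permutation p of 0.0286, the smallest possible, and an adjusted p of 0.114 over the 4 ratios compared, which did not pass. Nr4a3 over Nr4a2 averaged 0.51 ± 0.10 with training and 0.18 ± 0.21 at rest, a difference of 0.32 ± 0.12 (exact permutation p = 0.0571, adjusted p = 0.114). Nr4a2 over Nr4a1 averaged -0.48 ± 0.20 with training and -0.86 ± 0.48 at rest, a difference of 0.38 ± 0.26 (exact permutation p = 0.257, adjusted p = 0.257). With 4 libraries a group and 4 ratios, a single ratio at the smallest p cannot pass after adjustment, so the adjusted values do not settle whether the members rose by different factors. Of all reads on the 3 genes, Nr4a3 took 37.2% with training and 28.5% at rest. Nr4a1 took 36.6% with training and 46.1% at rest, and Nr4a2 26.2% with training and 25.3% at rest. Summed over the members, the libraries held 246.1 to 411.9 CPM with training and 34.04 to 57.1 CPM at rest.

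**Figure D2:**
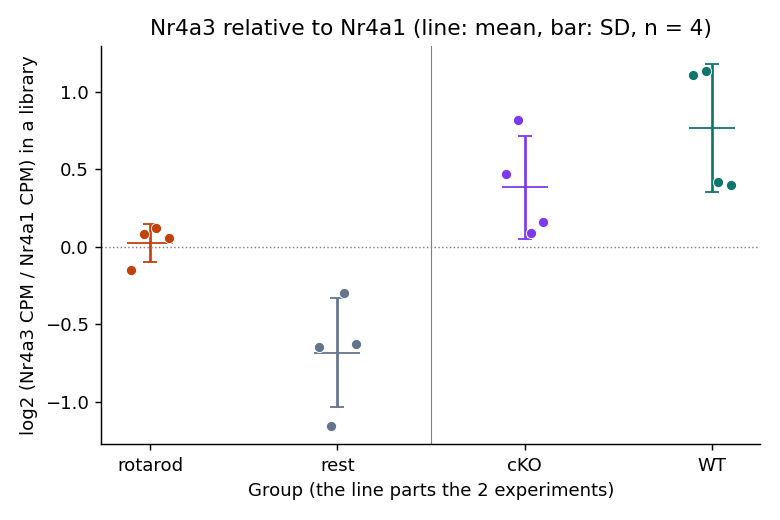
Log2 ratio of Nr4a3 to Nr4a1 CPM in each library (points), with the mean (line) and SD (bar) of 4 libraries. The 4 rotarod libraries lie between -0.15 and 0.12 and the 4 rest libraries between -1.16 and -0.30, whereas the cKO and WT libraries overlap.

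The authors' deposited table calls 3.38% of all features with training, 2.06% as higher and 1.31% as lower. Counts of listed cell type markers are given beside these shares. No marker of Purkinje cells, oligodendrocytes or microglia was listed, out of 8 each. Of 8 markers of interneurons and unipolar brush cells, only Eomes was listed, at 55.7 to 96.9 CPM with training and 26.6 to 34.4 CPM at rest, a rise of 1.31 ± 0.18 log2 (limma adjusted p = 0.0237). Eomes encodes a T-box factor that marks unipolar brush cells. Cbln1, the listed 1 of 10 granule neuron markers, was at 1063 to 1306 CPM with training and 1440 to 1769 CPM at rest, and did not pass limma (adjusted p = 0.130). Sox9, the listed 1 of 8 astroglia markers, was at 42.9 to 46.6 CPM with training and 54.6 to 66.1 CPM at rest (limma adjusted p = 0.0596). Of 10 vascular and meningeal markers, 1 (10%) was higher and 3 (30%) were lower in the authors' deposited table. Flt1 was the higher one, at 0.38 ± 0.14 log2. Slc6a13, Fmod and Col1a1 were lower, at -0.65 ± 0.13, -0.46 ± 0.14 and -0.44 ± 0.13, and limma called 0 of the 4. The sum of these 4 markers, which merges both directions, was 122.0 to 156.7 CPM with training and 137.0 to 173.2 CPM at rest. No listed marker was at 0 in any library. Their part in the Nr4a values was not tested.

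The genes nearest to each member across the 8 training libraries were ranked by the root mean square distance between profiles of log2 CPM, each set to its mean at rest, among 366 listed genes at or above the lowest mean of a member (4.96 log2 CPM). Within these candidates the members were among each other's nearest genes. The members reach the limit only through the rotarod libraries, since they averaged 4.43 (Nr4a1), 3.57 (Nr4a2) and 3.75 (Nr4a3) log2 CPM at rest. Nr4a2 and Nr4a3 lay closest, at 0.270 log2, Nr4a1 and Nr4a2 at 0.420, and Nr4a1 and Nr4a3 at 0.551. Beyond the family, the nearest of these candidates to each was Dusp1, a phosphatase that switches off MAP kinases, at 0.470 from Nr4a1, 0.499 from Nr4a2 and 0.735 from Nr4a3. Eomes and Tob2, an antiproliferative factor gene, followed at 0.860 and 0.876 from Nr4a1 and at 1.13 to 1.35 from the other members. Tob2 rose by 1.29 ± 0.10 (limma adjusted p = 0.00298) and Dusp1 by 2.16 ± 0.22 (limma adjusted p = 0.00623). Fosb, Fos, Npas4 and Fosl2 rose by 4.42, 4.03, 2.92 and 2.12 log2 but were below the abundance limit and were not among the candidates. The distance includes the size of the change with training, so the ranking follows in part from that size and from the abundance limit. It is a description over 8 libraries.

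The 30 rapid CREB and SRF target genes, the class to which Nr4a genes belong, give the setting of their rise. By limma 12 of them rose and 0 fell with training, and 22 were higher and 1 was lower in the authors' deposited table. The 30 were chosen for this known behaviour, with earlier results of these data known. The listed 23 had a median log2 fold change of 0.999 in the authors' deposited table, against 0.32 over all 908 listed genes and 2.80 for the 3 Nr4a members. Fosb and Fos, which encode subunits of the AP-1 factor, rose by 4.42 ± 0.29 and 4.03 ± 0.22 log2 (limma adjusted p = 0.00117 and 0.000639). Npas4, an activity-dependent bHLH factor gene, rose by 2.92 ± 0.29, between Nr4a2 and Nr4a3 in size (limma adjusted p = 0.00612). Arc, which encodes a synaptic protein of activated neurons, was the listed gene on the lower side, at -0.57 ± 0.20, and did not pass limma (adjusted p = 0.601). Of the 23 genes of this class with a promoter in the RefSeq table, 17 held at least 1 CRE half-site and 0 held 4 or more. Of 40 other nuclear receptor genes, 10 held at least 1 and 0 held 4 or more.

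The other lists of the pathway had small counts with training, which describe the named genes alone. Over all features the authors' deposited table calls 3.38% with training, 2.06% as higher, and limma calls 0.420% as higher. Of 46 nuclear receptor genes outside the family, the 3 retinoid X receptor partners among them, 0 were listed with training. Of 26 inducers of Nr4a transcription, 1 was higher (3.85%) in the authors' deposited table and 0 rose by limma. That gene was Ep300, a histone acetyltransferase and CREB coactivator, at 0.30 ± 0.08 (limma adjusted p = 0.193). Of 15 co-regulators of Nr4a proteins, 2 were higher (13.3%) in the authors' deposited table and 0 rose by limma. They were Rcor1, of the CoREST repressor complex, at 0.36 ± 0.07 (limma adjusted p = 0.0803), and the coactivator gene Ncoa3 at 0.26 ± 0.06 (limma adjusted p = 0.179). Of 29 genes reported as Nr4a targets in various tissues, 2 rose by limma and 3 were higher (10.3%) in the authors' deposited table. Fosl2, an AP-1 subunit gene, rose by 2.12 ± 0.23 (limma adjusted p = 0.0102), and Bdnf, a neurotrophin gene, by 0.73 ± 0.11 (limma adjusted p = 0.0364). Both also stand on the list of rapid target genes. Pdk4, a kinase gene of glucose metabolism, was at 0.75 ± 0.17 (limma adjusted p = 0.119). The dopamine genes Th, Ddc, Slc6a3 and Slc18a2, known targets of Nr4a2 in the midbrain, were not listed with training.

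The second comparison asks which transcripts differ without the Chd4 remodeler. Nr4a1 and Nr4a3 both averaged lower in cKO, Nr4a1 at 0.849 and Nr4a3 at 0.651 of the WT level. The authors' deposited table calls both lower, along with 9.30% of the features tested, and 20.3% in either direction. Limma, run on the log2 values of the 5508 listed genes alone, called neither. It called 1365 of the listed genes lower and 3579 in either direction. These calls were 5.04% and 13.2% of the features tested by the authors. Nr4a2 is not listed.

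Chd4 itself was at 8.06, 7.90, 7.90 and 7.90 log2 CPM in cKO libraries 1 to 4, against 8.34, 8.45, 8.41 and 8.31 in WT libraries 1 to 4. It averaged 245.9 ± 14.3 CPM in cKO and 332.5 ± 14.5 CPM in WT (SD, n = 4 each), so transcript remained in cKO. Cerebellar markers were present in both genotypes. Gabra6, a granule neuron GABA-A receptor subunit gene, averaged 9.60 log2 CPM in cKO and 9.40 in WT, and the Purkinje cell gene Pcp2 7.73 in cKO and 8.09 in WT.

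Nr4a3 stood at 5.16, 5.38, 4.52 and 4.56 log2 CPM in cKO libraries 1 to 4, against 5.83, 6.03, 5.20 and 5.04 in WT libraries 1 to 4. In both genotypes libraries 1 and 2 were the high ones, and the groups overlapped, since cKO library 2 lay above WT libraries 3 and 4 and cKO library 1 above WT library 4. The reads were 489, 616, 318 and 363 in cKO, against 854, 906, 568 and 484 in WT. The mean was 30.9 ± 9.26 CPM in cKO and 47.9 ± 15.7 CPM in WT (SD, n = 4 each). The difference was -0.62 ± 0.28 log2 (SE, 95% interval -1.26 to 0.02), with a limma adjusted p of 0.294 and an exact two-sided permutation p of 0.143. The authors' deposited table gives -0.63 with an adjusted p of 3.62e-19, rank 487 of 5508 by p-value.

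Libraries 1 and 2 exceeded libraries 3 and 4 in Nr4a3 by 0.73 log2 in cKO and by 0.81 in WT, more than the genotypes differed. Between libraries of the same number, cKO minus WT was -0.67, -0.65, -0.67 and -0.48. The 4 differences were all negative and close together. Within libraries 1 and 2 the genotypes differed by -0.66, and within libraries 3 and 4 by -0.58 (limma adjusted p of 0.129 and 0.0557, 2 libraries a group). When the numbers 1 and 2 against 3 and 4 entered limma as a term, an alternative chosen after the data were seen, Nr4a3 fell by 0.62 ± 0.08 on the log2 scale (limma adjusted p = 0.00195). The labels do not say what the numbers stand for.

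**Figure D3:**
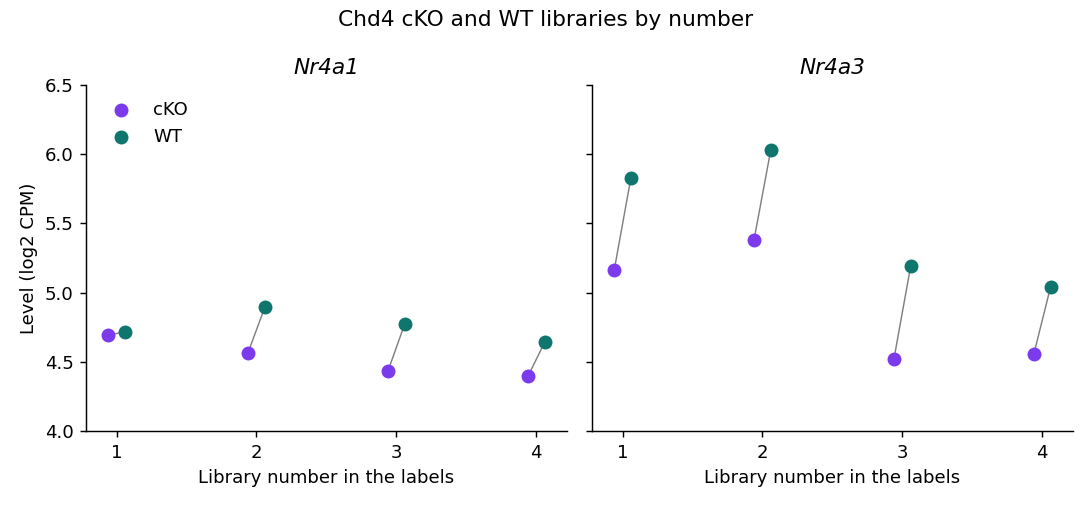
Level of Nr4a1 and Nr4a3 in log2 CPM in the cKO and WT libraries by the number in the labels, with a line joining the libraries of 1 number. For Nr4a3 every cKO point lies below the WT point of its number by 0.48 to 0.67, and numbers 1 and 2 lie above numbers 3 and 4 in both genotypes.

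Nr4a1 stood at 4.69, 4.57, 4.43 and 4.40 log2 CPM in cKO libraries 1 to 4, against 4.72, 4.90, 4.78 and 4.64 in WT libraries 1 to 4. The groups overlapped at 1 point, where cKO library 1 lay above WT library 4. The reads were 353, 349, 299 and 324 in cKO, against 394, 411, 424 and 366 in WT. The mean was 22.9 ± 2.19 CPM in cKO and 27.0 ± 2.03 CPM in WT (SD, n = 4 each). The difference was -0.24 ± 0.08 log2 (SE, 95% interval -0.43 to -0.04), with a limma adjusted p of 0.130 and an exact two-sided permutation p of 0.0571. The authors' deposited table gives -0.24 with an adjusted p of 0.0175. Libraries 1 and 2 exceeded libraries 3 and 4 by only 0.21 in cKO and 0.10 in WT, and the genotypes differed by -0.18 within libraries 1 and 2 and by -0.29 within libraries 3 and 4 (limma adjusted p of 0.886 and 0.185). Among all 5508 listed genes, 78.0% had groups without overlap, unlike either Nr4a gene.

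**Figure D4:**
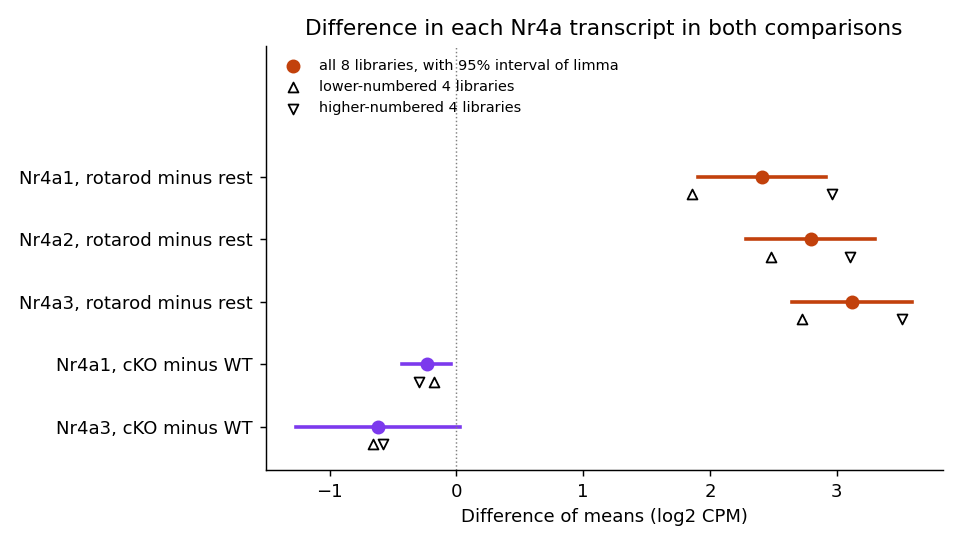
Difference of group means in log2 CPM for each Nr4a transcript, rotarod minus rest and cKO minus WT (dots), with limma's 95% interval (lines) and the values within the lower-numbered and the higher-numbered 4 libraries (triangles). The rotarod differences run from 2.41 to 3.12 and the cKO differences are -0.24 for Nr4a1 and -0.62 for Nr4a3, whose interval reaches 0.02.

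Nr4a3 over Nr4a1 was 0.47, 0.82, 0.09 and 0.16 log2 in cKO libraries 1 to 4, against 1.11, 1.14, 0.42 and 0.40 in WT libraries 1 to 4. The difference of -0.38 ± 0.26 did not pass (exact two-sided permutation p = 0.229, adjusted p = 0.257). The ratio followed the library numbers as Nr4a3 did, with numbers 1 and 2 high in both genotypes. The WT libraries of this experiment averaged 0.77 ± 0.41 and the untrained WT libraries of the rotarod experiment -0.68 ± 0.35 (SD, n = 4 each). The tables were normalised separately, but the ratio within a library does not depend on that scaling, and the 2 sets of WT libraries lay apart with no overlap. They differ in experiment, and no test was made between them. Nr4a1 and Nr4a3 together held 617 to 965 reads in cKO and 850 to 1317 reads in WT.

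Markers of several cell types were lower in cKO as well. Over all features the authors' deposited table calls 9.30% lower and 11.0% higher. Of 8 Purkinje cell markers 7 were lower in the authors' deposited table, and these summed to 6957 to 7445 CPM in cKO and 8214 to 8696 CPM in WT. Of 10 vascular and meningeal markers 8 were lower in the authors' deposited table, at 163.9 to 174.4 CPM in cKO and 200.7 to 229.9 CPM in WT. Astroglia markers were lower for 5 of 8 (3677 to 3979 CPM in cKO, 4299 to 4474 CPM in WT) and oligodendrocyte markers for 6 of 8 (3951 to 4201 CPM in cKO, 4021 to 5430 CPM in WT), by the authors' deposited table. Interneuron and unipolar brush cell markers had 1 higher and 6 lower of 8 in the authors' deposited table (814.5 to 889.9 CPM in cKO, 897.4 to 994.4 CPM in WT). Granule neuron markers went both ways, 3 higher and 4 lower of 10 in the authors' deposited table (3810 to 3920 CPM in cKO, 3961 to 4277 CPM in WT). Microglia and macrophage markers had 1 higher and 1 lower of 8 (20.7 to 25.0 CPM in cKO, 18.1 to 23.7 CPM in WT) in the authors' deposited table. No listed marker was at 0 in any library. Their part in the Nr4a1 and Nr4a3 values was not tested.

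Among 2717 listed genes at or above 4.64 log2 CPM, those nearest to Nr4a1 in the cKO and WT libraries were Mrps2, Tpcn1, Adgrf5, Zfp574 and Mef2d, at distances of 0.0318 to 0.0499 log2. Mef2d encodes a MEF2 factor, a known inducer of Nr4a1, and fell by 0.28 ± 0.07 (limma adjusted p = 0.0422). Mrps2 encodes a mitochondrial ribosomal protein, and Tpcn1 an endolysosomal cation channel. The genes nearest to Nr4a3 were Cxcl12, D8Ertd82e, Ankrd34a, Lgi4 and Flt1, at larger distances of 0.261 to 0.310. Cxcl12 encodes a chemokine and differed by -0.45 ± 0.14 (limma adjusted p = 0.0778). Flt1, a VEGF receptor gene of endothelial cells, fell by 0.39 ± 0.11 (limma adjusted p = 0.0443). The gene nearest to Nr4a3 was thus farther from it than any of the 5 genes named for Nr4a1 was from Nr4a1.

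Other nuclear receptor genes moved both ways in cKO. Of the 46, 7 rose and 6 fell by limma, and 7 were higher and 8 lower in the authors' deposited table. Higher calls by limma were 2214 of the 5508 listed genes. They made up 8.18% of all features tested, against 11.0% in the authors' deposited table. Nr1h3, the oxysterol receptor LXR alpha, rose by 1.61 ± 0.05, to 4.50 log2 CPM in cKO against 2.88 in WT (limma adjusted p = 1.21e-06). Of the others, 5 rose by less, from 0.29 for Rarb and Nr1d2 to 0.30 for Thra, 0.41 for Nr1d1 and 0.47 for Nr3c2. They encode a retinoic acid receptor, the clock repressors REV-ERB beta (Nr1d2) and alpha (Nr1d1), a thyroid hormone receptor and the mineralocorticoid receptor. Of those that fell, 5 did so by 0.23 for Esrrg, 0.26 for Ppard, 0.27 for Rxra, 0.29 for the glucocorticoid receptor gene Nr3c1 and 0.33 for Nr2f1 (limma adjusted p of at most 0.0428). Nr2f2 and Esrrb, at -0.30 and -0.40, did not pass limma (adjusted p = 0.250 and 0.125). Rxra, which encodes a partner of Nr4a1 and Nr4a2, was the 1 listed gene of the 3 retinoid X receptors. The difference of Nr4a1 lay amid those of the lower receptors and that of Nr4a3 beyond them, with the largest SE of the 17 listed receptor genes. The 15 listed receptors outside the family had a median log2 fold change of -0.24 in the authors' deposited table, against 0.20 over all 5508 listed genes.

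**Figure D5:**
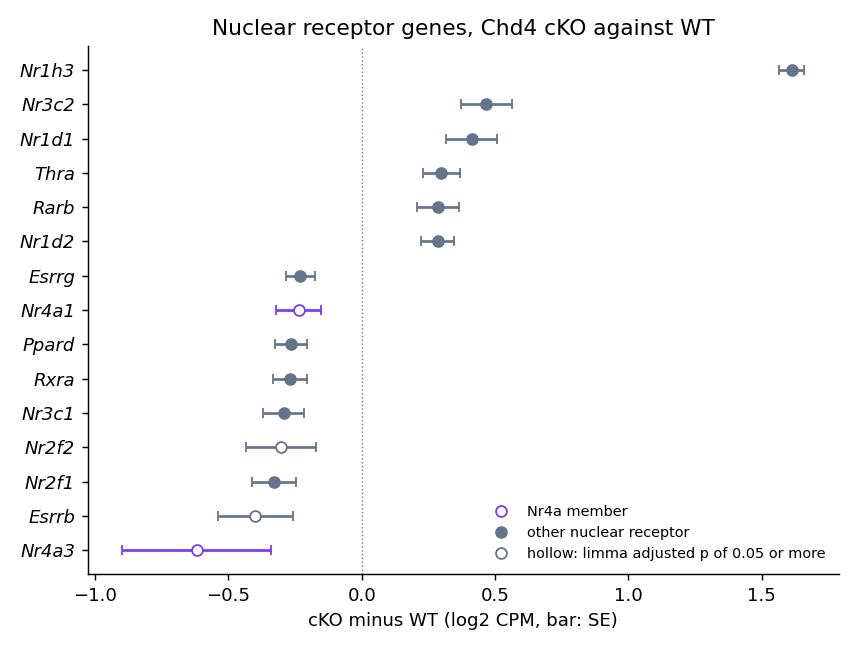
Difference of cKO minus WT in log2 CPM, with limma's SE as a bar, for 13 of the 15 listed nuclear receptor genes outside the Nr4a family and for Nr4a1 and Nr4a3 (4 libraries per genotype). Nr1h3 stands apart on the higher side at 1.61, and Nr4a3 is the lowest value at -0.62 with the widest bar.

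Listed genes upstream of Nr4a transcription were more often lower than higher in cKO. Of 26 inducers, 2 rose and 8 fell by limma, and 3 were higher (11.5%) and 10 lower (38.5%) in the authors' deposited table. Over all features that table calls 11.0% higher and 9.30% lower, and limma 8.18% and 5.04%. Rps6ka1, a ribosomal S6 kinase gene downstream of ERK, fell by 0.51 ± 0.08 (limma adjusted p = 0.00360). Camkk2, a kinase gene that acts on CaM kinases, fell by 0.48 ± 0.06, and Crtc1, a CREB coactivator gene, by 0.45 ± 0.06 (limma adjusted p = 0.000872 and 0.00245). Mapk3, which encodes the kinase ERK1, rose by 0.49 ± 0.07 (limma adjusted p = 0.00201). The 13 listed inducers had a median log2 fold change of -0.28 in the authors' deposited table.

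Of 15 co-regulators, 2 fell by limma, and 1 was higher (6.67%) and 3 were lower (20%) in the authors' deposited table. Over all features that table calls 11.0% higher and 9.30% lower, and limma 8.18% and 5.04%. Counts this small describe the named genes alone. Pias4, a SUMO ligase gene, fell by 0.28 ± 0.07 and Rcor1 by 0.22 ± 0.06 (limma adjusted p = 0.0265 and 0.0402). Hdac2, a histone deacetylase gene, at 0.24 ± 0.07, and the coactivator gene Ncoa2, at -0.20 ± 0.06, did not pass limma (adjusted p = 0.0550 and 0.0648). Of 29 reported Nr4a targets, 4 rose and 1 fell by limma, and 6 were higher (20.7%) and 2 lower (6.90%) in the authors' deposited table. The cell cycle factor gene E2f1 rose by 1.29 ± 0.09 and the enolase gene Eno3 by 0.88 ± 0.07 (limma adjusted p = 6.03e-05 and 8.03e-05). Ddc, which encodes the decarboxylase of dopamine and serotonin synthesis, fell by 0.63 ± 0.11 (limma adjusted p = 0.00635). Th, the rate-limiting enzyme of dopamine synthesis, was at -0.73 ± 0.43 and did not pass (limma adjusted p = 0.652).

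The rapid CREB and SRF target genes were higher in cKO more often than lower, the other way from the means of Nr4a1 and Nr4a3. Of the 30, 8 rose and 3 fell by limma, and 12 were higher (40%) and 4 lower (13.3%) in the authors' deposited table. Over all features that table calls 11.0% higher and 9.30% lower. Arc rose by 1.47 ± 0.12, Atf3, a stress-induced factor gene, by 1.40 ± 0.21 and Ier5 by 0.85 ± 0.05 (limma adjusted p of at most 0.00286). Fos was at 1.11 ± 0.36 and did not pass limma (adjusted p = 0.0874). Dusp1, the phosphatase gene named above, rose by 0.76 ± 0.09 in cKO (limma adjusted p = 0.00113). The phosphatase gene Dusp4 and the factor gene Egr4 fell, by 0.71 ± 0.07 and 0.64 ± 0.13 (limma adjusted p = 0.000424 and 0.0163). Their 16 listed genes had a median log2 fold change of 0.47 in the authors' deposited table, against -0.44 for the 2 Nr4a genes.

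Of the 3 members, 0 were listed in the Sync-TRAP tables, where the authors' deposited tables call 0.148% of the features for IP cKO against IP WT and 0.194% for IP WT against input WT. With so few calls, a member not listed there is not shown to be alike between groups. Of the rapid target genes, Npas4 was the 1 listed for IP cKO against IP WT, with a log2 fold change of 7.65 in the authors' deposited table. A value of this size was usual there. The 38 genes listed for that comparison had a median log2 fold change of 7.03 and a median level of only -0.997 log2 CPM. Of the inducers, Mef2d was the 1 listed for IP WT against input WT, at 0.93 in the authors' deposited table. The other lists of the Nr4a pathway had no listed gene in either table.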

How the data were processed

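Messenger RNA and Sync-TRAP libraries were compared as 4 gene tables. The library headers name only the sample or group, and the values under them were taken as log2 CPM made by the authors with a small prior. The same tables hold the authors' log2 fold change, a likelihood ratio score, and the p-value before and after adjustment for each comparison, as deposited. Per the submitters' processing notes, the tools were Bowtie, edgeR, SICER and bedtools and the build was mm9. Their versions, how reads were counted and what was filtered are not stated there. The chromatin samples and region lists were not used here.

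Each table holds only called genes, so no count model was run. Repeated lines (49 for cKO and 5 for rotarod) were removed. Low values, with the floor of 0 reads taken off, were whole reads (100% within 0.1 read, up to 3000 reads), which gave effective depths of 13.7 to 15.6 M reads for cKO and WT and 13.7 to 16.7 M for rotarod and rest. Limma 3.58.1 (R 4.3.3) compared the log2 values of all listed genes, with no added pseudocount or filter. Benjamini-Hochberg adjustment ran over the 27069 and 26893 features tested that follow from the deposited p-values before and after adjustment. Its variance prior came from called genes alone. Exact two-sided permutation tests used scipy 1.17.1 (Python 3.11.15), and figures matplotlib 3.10.9. The fit was tested on simulated data.

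The library numbers of cKO and WT are those of the sample titles, whereas rotarod and rest columns are known by group alone. Named genes are the 3 members, Chd4, the 5 genes with the nearest profile to each member (predicted genes left out, abundance at or above the lowest member), all listed nuclear receptors (2 of which are counted but not reported here by name) and up to 4 listed genes of each other list. Genes outside this rule (Dusp1, Dusp4 and Egr4 in cKO, and dopamine genes) were chosen after their values were seen. The rule was to take the largest changes of a list. Arc with training and Gabra6 in cKO are named besides, though neither was among the 4 largest of its list. The members and lists were chosen with earlier results of these data known. Alternatives tried were a variance trend, pseudocounts of 0.1, 1 and 5 CPM, an abundance limit at the median, a threshold of 0.01, adjustment over listed genes, leaving out each library, subsets of libraries and a replicate block. Precision is limited by 4 libraries a group, and read counts carry counting error besides.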

Additional observations from a re-analysis of the deposited data

How the results depend on the processing

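The rotarod differences kept their direction and passed limma with a variance trend, every pseudocount, the split of columns as a term and each library left out. With 1 library left out they ran from 2.24 to 2.54 for Nr4a1, 2.63 to 2.96 for Nr4a2 and 2.97 to 3.25 for Nr4a3 (limma adjusted p of at most 0.0195), and 3 members were called each time. The abundance limit is no check for them, since their means at rest lie below it and they pass it through the rotarod libraries. Within columns 1 to 4 the values were 1.86, 2.49 and 2.73 (adjusted p = 0.169, 0.169 and 0.174) for Nr4a1, Nr4a2 and Nr4a3, and within columns 5 to 8 they were 2.96, 3.10 and 3.51 (adjusted p = 0.303, 0.417 and 0.331). Each of these sets of columns thus called 0 members, with 2 libraries a group and fewer samples by construction. No paired analysis was possible for rotarod and rest because their columns carry no number of the sample titles.

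With 1 library left out, the cKO differences ran from -0.29 to -0.19 for Nr4a1 and from -0.78 to -0.45 for Nr4a3, and limma called 0 members each time. With a replicate block on the library number, Nr4a3 was at -0.62 ± 0.06 (limma adjusted p = 0.00450) and Nr4a1 had an adjusted p of 0.135, so 1 member was called. Deviations of same-numbered cKO and WT libraries correlated at 0.0983, 0.160, 0.131 and 0.0846 across genes. These values do not settle whether same-numbered libraries were paired, and the main fit treated them as unpaired. Between cKO and WT libraries, all 8 correlations within numbers 1 and 2 or within 3 and 4 were positive (0.0305 to 0.184), and 7 of the 8 across these sets were negative (-0.163 to 0.0312). The deviations of each genotype sum to 0 for every gene, so the negative values are not a separate observation. This split of the numbers was itself chosen after the data were seen. The block lowered the calls over all genes to 1812 higher and 1038 lower, against 2214 and 1365 without it. With numbers 1 and 2 against 3 and 4 as a term, chosen after the data were seen, Nr4a3 was at -0.62 ± 0.08 (adjusted p = 0.00195), Nr4a1 had an adjusted p of 0.0542, and 1 member was called. This term raised the calls over all genes to 2363 higher and 1685 lower. Adjustment over the listed genes alone gave 1 member by limma, which was Nr4a1 and not Nr4a3, and a threshold of 0.01 left 1 of 2 members in the authors' deposited table. Nr4a1 was below the abundance limit in the cKO table, so it has no value under that alternative.

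With 1 library left out, the ratios of members ran from 0.55 to 0.84 for Nr4a3 over Nr4a1, 0.21 to 0.58 for Nr4a2 over Nr4a1 and 0.25 to 0.41 for Nr4a3 over Nr4a2 with training, and from -0.53 to -0.26 for Nr4a3 over Nr4a1 in cKO. Under the alternatives run, 6 differences lost their call, 2 gained one, 6 counts of members moved and 0 values turned round, and those that lost or gained a call or moved are given above. Limma's calls over all genes with training, 113 higher and 54 lower, ranged from 44 to 67 higher and 10 to 19 lower with 1 library left out. They numbered 195 higher and 91 lower with a variance trend. Over all genes limma called 461 higher and 96 lower within libraries 1 and 2 of cKO and WT, and 842 higher and 247 lower within libraries 3 and 4.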
